A study of Homo sapiens with 8 samples.

Results

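The late phase of the response of Kasumi-1 cells to chlorprothixene was followed here, as the change from the 6 h to the 24 h library with the 12 h library as the middle point. The comparison rests on 3 of the 8 libraries of the series, all labelled as Kasumi-1 cells given 40 uM chlorprothixene. Of 55728 gene names outside the mitochondrial genome, the 11715 that reached 5 TPM (a transcript level scaled for gene length and library size) in at least 1 of those 3 libraries were compared. Mitochondrially encoded genes were removed and TPM was rescaled to the same total in every library. All levels below are these rescaled TPM, and all differences are log2 ratios of (TPM + 1), which understate the change of low genes.

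The study sequenced total RNA of the human leukaemia lines NB4 and Kasumi-1. For both NB4 and Kasumi-1 a single library was made from untreated cells, and a single one after 6, 12 and 24 h in 40 uM chlorprothixene. Both lines were grown with serum, and whether the untreated cells received a vehicle, or at which time they were taken, is not given in the sources used here. Kasumi-1 is an acute myeloid leukaemia line that carries the RUNX1-RUNX1T1 fusion, and NB4 is an acute promyelocytic leukaemia line that carries PML-RARA. Chlorprothixene is a thioxanthene antipsychotic that blocks dopamine and other amine receptors. There is 1 library per condition, so no difference below has a replicate check and none carries a p-value. A gene is said to have risen or fallen where its log2 ratio passed 1 in size, that is 2-fold, and for other genes the values alone are given.

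Cells under drug stress switch on several programmes with different timing. Immediate early genes such as EGR1 and JUN encode transcription factors that are induced within minutes and whose messengers decay quickly. The integrated stress response works through phosphorylation of eIF2 alpha and translation of ATF4, which raises genes for amino acid uptake, amino acid synthesis and tRNA charging. Progenitor genes such as KIT, CD34 and MYB are expressed in immature myeloid cells and are lost as these cells mature.

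The labelled cell type was checked against 7 myeloblast markers, all of which reached at least 1 TPM in a treated Kasumi-1 library. Their summed level was 11780 untreated, 12765 at 6 h, 10634 at 12 h and 11884 at 24 h, and most of each sum is MPO (10856, 12389, 10208 and 11269). Some markers were far lower at 6 h than untreated, with KIT at 493 and then 78.7, CD34 at 122 and then 19.9 and CD33 at 53.2 and then 19.9. Summed erythroid markers stayed at or below 0.6, summed lymphoid markers lay between 5.83 and 16.5 and summed epithelial markers between 21.2 and 32.3 in the 4 Kasumi-1 libraries. Summed mast cell and basophil markers were 2.64 untreated, 10.4 at 6 h, 20.9 at 12 h and 34.6 at 24 h, with 1 of the 5 markers at 1 TPM or more in a treated library. In a culture, fewer cells of a kind and less RNA per cell cannot be told apart.

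Between 6 and 24 h, 504 of the 11715 genes rose (4.3% of genes) and 388 fell (3.31%). The median log2 ratio over all genes was 0.08, and the 10th and 90th percentiles were -0.51 and 0.68. Fewer genes changed in the first and shorter interval, with 136 higher (1.16%) and 239 lower (2.04%) at 12 h than at 6 h. From 12 to 24 h, 318 were higher (2.71%) and 194 lower (1.66%). The 12 h level lay between the 6 h and 24 h levels for 439 of the 504 risen genes and 307 of the 388 fallen genes. Choosing genes by far-apart ends favours such an order, and over all genes the share was 44.8%. The median step of the risen genes was 0.54 from 6 to 12 h and 0.76 from 12 to 24 h. The median step of the fallen genes was -0.69 and then -0.78. The interval from 12 to 24 h is the longer one, so these counts and steps are not rates.

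The share of mitochondrially encoded RNA grew over the same hours. It was 7.94% of the deposited TPM at 6 h, 10.6% at 12 h and 17.1% at 24 h, against 8.73% in untreated Kasumi-1 cells. In NB4 the share stayed between 5.04% and 6.71%. With the mitochondrial rows kept in the total, 328 genes rose and 484 fell, and the median of all genes was -0.07. Genes higher at 24 h then made up 40.4% of the changed genes, against 56.5% with those rows removed. The part of this growing share in the nuclear gene changes was not tested beyond these counts.

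**Figure D1:**
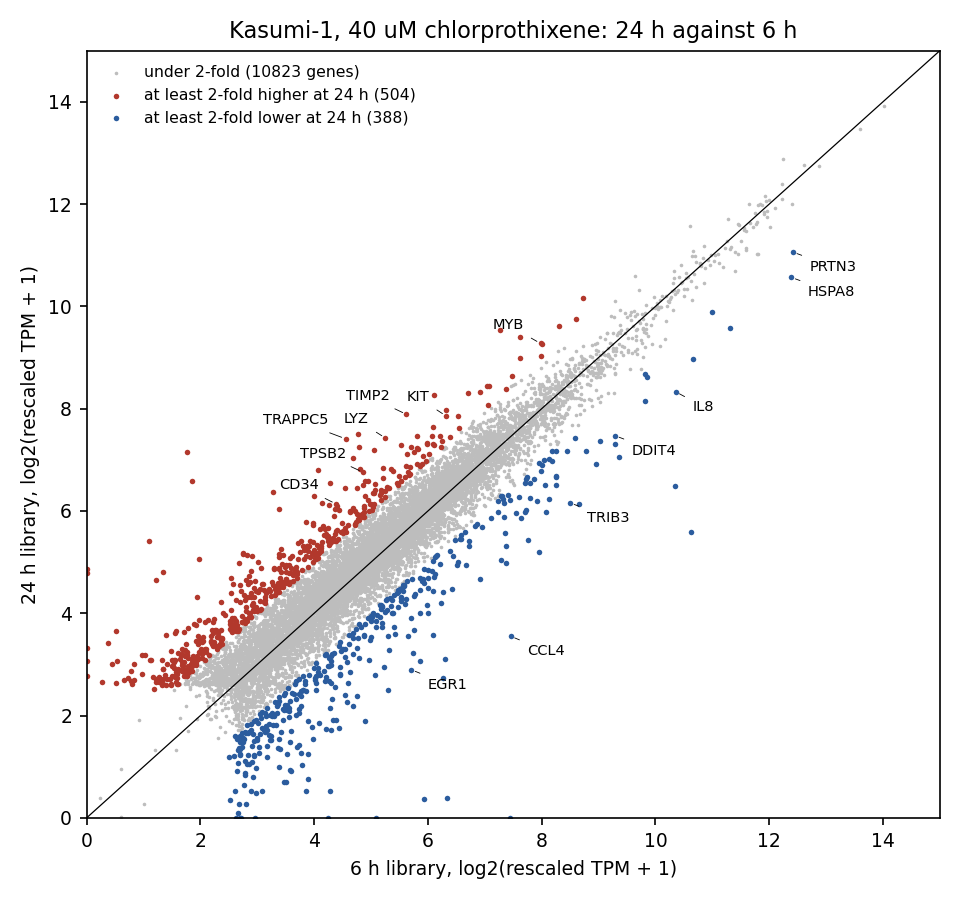
Level of each of the 11715 genes in the 6 h library (horizontal axis) and the 24 h library (vertical axis) of Kasumi-1, both as log2(rescaled TPM + 1). Each point is a gene. The 504 genes at least 2-fold higher are red, the 388 at least 2-fold lower are blue, the diagonal marks equal levels, and CCL4 and TRIB3 lie far below it.

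The fall of immediate early genes was the most widespread change among lists of at least 5 compared genes. Of 23 listed genes, 20 passed the filter, 14 of these fell and none rose, against 3.31% and 4.3% of all genes. The list's median log2 ratio was -1.44, and the medians of the intervals were -0.41 from 6 to 12 h and -0.74 from 12 to 24 h. Against the untreated library the medians were 1.94 at 6 h, 1.20 at 12 h and 0.37 at 24 h. The members were thus mostly above the untreated level at 6 h and closer to it at 24 h.

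EGR1, a zinc-finger factor induced by growth factor and MAP kinase signalling, went against that order. EGR1 (chr5:137801179-137805004, plus strand, hg19) had 62.1 TPM untreated, 51.3 at 6 h, 20.8 at 12 h and 6.44 at 24 h. It was never above its untreated level, and its log2 ratio of 24 h to 6 h was -2.81. KLF2, a Krüppel-like factor that restrains inflammatory genes, had 27.3 TPM untreated, 622 at 6 h, 346 at 12 h and 158 at 24 h. KLF2 fell by 1.97 on the log2 scale but remained above the untreated library at every treated time. NR4A1, an orphan nuclear receptor, had 11.3, 154, 89.3 and 31.9 TPM in the same order and a log2 ratio of -2.24. IER2 lost most of its level by 12 h, with 14.5, 119, 27.6 and 24.6 TPM.

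The AP-1 subunits, which pair to bind the same DNA element, differed among themselves. JUN had 42.1 TPM untreated, 241 at 6 h, 289 at 12 h and 72.6 at 24 h, so that its level was held until 12 h and dropped afterwards. JUND went from 441 at 6 h to 223 and 144, and JUNB from 221 to 128 and 92.5. FOSL1 had 9.35, 38.2, 19.6 and 10.7 TPM, with a log2 ratio of -1.74. FOS stood at 12.3 in both the 6 h and the 24 h library, and FOSL2 had a log2 ratio of 0.31. ZFP36, which destabilises cytokine messengers, had 33.4, 163, 118 and 46.8 TPM and fell by 1.78 on the log2 scale. IER5 was listed at 0 in the untreated library and had 42.5, 45.1 and 38.3 TPM in the treated ones.

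The filter used Kasumi-1 libraries alone, so genes that NB4 hardly expresses enter its values with ratios near 0. Of the 11715 genes, 10184 also reached 5 TPM in a treated NB4 library. In the same hours the 20 immediate early genes of NB4 had a median log2 ratio of 0.49, with 4 risen (background 3%) and none fallen (background 0.802%). KLF6 had a log2 ratio of -1.03 in Kasumi-1 and 1.33 in NB4, and EGR3 -2.78 and 1.15. EGR3 was low in NB4, with 1.14 TPM at 6 h and 3.75 at 24 h, so its ratio there rests on low values. JUN had -1.72 and 0.66. The difference between the lines could not be tested with 1 library per time. Of 9 genes listed for MAP kinase feedback 3 fell in Kasumi-1 (DUSP5, SPRY2 and PHLDA1), against 3.31% of all genes. None rose and the median was -0.77. In NB4 the median of these 9 was 0.12, and 3 rose, against 3% of all genes.

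The start regions of 3 fallen immediate early genes are shown because they hold the binding motifs for which this gene class is known. The stretches shown are parts of promoter windows and lie upstream of the RefSeq start on GRCh38.p14. Capitals mark the motif. EGR1 holds 2 CArG boxes, the element of serum response factor, with first letters 105 and 83 bases before the start (chr5:138465344-138465435, plus strand). JUND (chr19:18281785-18281852, minus strand) and MAFF (chr22:38201910-38201977, plus strand) each hold the cyclic AMP response element TGACGTCA, 200 and 54 bases before the start.
EGR1: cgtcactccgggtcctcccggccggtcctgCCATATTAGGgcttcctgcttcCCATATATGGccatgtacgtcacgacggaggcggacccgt
JUND: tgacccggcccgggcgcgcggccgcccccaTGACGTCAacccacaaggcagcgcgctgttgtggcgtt
MAFF: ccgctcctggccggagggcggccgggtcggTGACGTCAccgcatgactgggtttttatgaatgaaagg
Both strands were searched. The shares that follow count a motif anywhere in the window, which was not limited to bases upstream of the start. The CArG motif was in 1 of the 16 immediate early genes with a window, against 1.45% of the 8806 compared genes with one, and the response element was in 2 of the 16, against 3.99%. Over all 35116 windows the shares were 1.29% and 1.85%. A match describes the letters and not a bound site.

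The chemokine list had the lowest median log2 ratio of the 39 lists. Of 21 listed genes 10 passed the filter, 6 fell and 1 rose, against 3.31% and 4.3% of all genes, with a median of -1.66. The list had a median of 2.21 above untreated at 6 h and 0.51 at 24 h, and the interval medians were -0.42 before and -1.56 after 12 h. CCL4 (chr17:34430983-34433014, plus strand), an inflammatory chemokine, had 1.20 TPM untreated, 175 at 6 h, 86.8 at 12 h and 10.7 at 24 h, a log2 ratio of -3.91. CCL3, its neighbour in the chemokine family, had 0.13, 57.2, 36.03 and 7.41 TPM. Both were near 0 without drug, highest at 6 h and still above the untreated level at 24 h.

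CCL3L3 had 22.1, 248, 127 and 35.7 TPM and CCL4L1 13.7, 1304, 520 and 88.8. These genes are near-identical copies of CCL3 and CCL4, so the split of reads between the copies is uncertain. CCL5, which attracts T cells, had 60.5, 348, 147 and 142 TPM. IL8 (CXCL8), the neutrophil chemokine, was different in time, with 350 TPM untreated, 1312 at 6 h, 1651 at 12 h and 321 at 24 h. Its level was highest at 12 h and near the untreated level at 24 h. CXCR4, the receptor for CXCL12 that holds blasts in the marrow, was the member that rose, with 21.8, 31.1, 71.9 and 69.7 TPM and a log2 ratio of 1.14. It fell short of 2-fold with the mitochondrial rows kept, where no chemokine list member rose.

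NF-kB subunits and feedback genes did not move as 1 group, with 3 of 18 fallen (3.31% of all genes), 1 risen (4.3%) and a median of -0.24. A single risen gene among 18 is near the share of all genes. PLAU, which encodes urokinase, had 101, 521, 244 and 164 TPM. CD69, an early activation antigen, had 474, 278, 151 and 74.8 TPM, already lower than untreated at 6 h. TNFAIP3, which encodes the inhibitor A20, had 94.7, 35.3, 55.1 and 83.6 TPM and rose by 1.22.

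Of 23 integrated stress response genes past the filter 8 fell and none rose in Kasumi-1, against 3.31% and 4.3% of all genes, with 20 below 0 and a median log2 ratio of -0.84. Its median against the untreated library was 0.94 at 6 h, 0.65 at 12 h and 0.31 at 24 h. ATF4 itself, the factor of the pathway, had 635 TPM untreated, 1165 at 6 h, 998 at 12 h and 842 at 24 h, a log2 ratio of -0.47. DDIT3, which encodes CHOP, had 29.4, 61.6, 67.7 and 47.9 TPM, a log2 ratio of -0.36. Neither passed 2-fold.

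TRIB3 (chr20:361261-378203, plus strand), a pseudokinase that feeds back on ATF4, had 77.4 TPM untreated, 362 at 6 h, 131 at 12 h and 70.4 at 24 h. Its log2 ratio of -2.35 was the most negative of the list, and the 24 h level was below the untreated one. DDIT4, an inhibitor of mTORC1, had 325, 627, 291 and 176 TPM and a ratio of -1.82. STC2, a secreted glycoprotein, had 21.0, 41.1, 19.7 and 12.3 TPM. CHAC1, which degrades glutathione, had 40.7, 28.5, 20.1 and 10.8 TPM and was below the untreated level at all 3 times. ASNS (chr7:97481430-97501854, minus strand), asparagine synthetase, had 134, 289, 185 and 125 TPM, with a ratio of -1.21 in Kasumi-1 and -1.37 in NB4. ADM2, VLDLR and FAM129A completed the 8, with ratios of -1.58, -1.32 and -1.04. JDP2, with 14.5, 17.2, 29.5 and 31.1 TPM, had the highest ratio of the list at 0.82. The 23 genes had a median of -0.30 in NB4, where 3 fell, against 0.802% of all genes, and TRIB3 had 0.31 there.

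Start regions of 3 fallen genes are shown, ASNS and CHAC1 of the integrated stress response list and MTHFD1L of the serine and one-carbon enzymes. They were picked among fallen genes as those that hold the C/EBP-ATF response element. This is the composite element that ATF4 dimers bind, written here as TGATGNAA. Each region is upstream of the RefSeq start on GRCh38.p14 with the motif in capitals. In CHAC1 the motif lies on the opposite strand and reads as its reverse complement. ASNS is at chr7:97872439-97872506 (minus strand) with the motif 68 bases before the start, CHAC1 at chr15:40953232-40953299 (plus strand, 209 bases) and MTHFD1L at chr6:150866327-150866394 (plus strand, 129 bases).
ASNS: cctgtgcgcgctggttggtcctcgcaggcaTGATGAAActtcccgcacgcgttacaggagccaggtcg
CHAC1: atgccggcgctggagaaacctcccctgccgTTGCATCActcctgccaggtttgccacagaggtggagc
MTHFD1L: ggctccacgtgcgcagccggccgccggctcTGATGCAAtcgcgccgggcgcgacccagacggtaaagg
Counted anywhere in the window, and not only upstream, the element was present in 5 of the 22 integrated stress response genes with a window. It was also in 7 of 16 cytosolic aminoacyl-tRNA synthetase genes. It was in 5 of 13 amino acid transporter genes and 1 of 7 serine and one-carbon genes, against 2.51% of the 8806 compared genes with a window and 3.62% of all 35116 windows. Of the 7 synthetase genes that hold it, AARS, CARS, GARS, IARS, MARS, NARS and TARS, none fell 2-fold. Nor did any of the 5 transporter genes that hold it, SLC3A2, SLC7A1, SLC1A5, SLC1A4 and SLC38A1. Among the 5 integrated stress response genes that hold it, ASNS and CHAC1 fell and ATF3, CEBPG and JDP2 did not.

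Of 20 cytosolic aminoacyl-tRNA synthetase genes, which charge tRNA, 2 fell, against 3.31% of all genes, none rose, and the median was -0.35. WARS had 83.3, 267, 175 and 90.1 TPM and a log2 ratio of -1.56. VARS was listed at 7.16, 6.95, 2.22 and 1.95 TPM, far below the other synthetases, and lies in the histocompatibility region of chromosome 6, where hg19 has near-identical alternative sequences, so its value is uncertain. GARS, the most abundant at 6 h, had 296, 473, 334 and 265 TPM and a ratio of -0.83. FARSA, QARS and RARS had positive ratios of 0.23, 0.24 and 0.44.

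Amino acid transporters had 3 of 14 fallen, against 3.31% of all genes, none risen and a median of -0.43. SLC7A5, the leucine and tryptophan exchanger, had 116, 209, 106 and 61.9 TPM and a log2 ratio of -1.74. SLC7A11, the cystine importer, had 3.19, 18.2, 10.5 and 6.87 TPM, with ratios of -1.29 in Kasumi-1 and -1.24 in NB4. SLC6A9, a glycine transporter, had 5.54, 35.4, 32.8 and 16.4 TPM. Serine and one-carbon enzymes had 4 of 13 fallen, against the same 3.31%, and none risen. PSAT1 and PHGDH, which make serine from glycolytic intermediates, had ratios of -1.54 and -1.02. MTHFD1L and ALDH1L2, mitochondrial folate enzymes, had -1.25 and -1.36. SHMT1, a cytosolic folate enzyme, had a positive ratio of 0.85, so that the list did not move one way.

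ASS1, argininosuccinate synthase, was among the furthest fallen genes outside the lists. It had 3.38 TPM untreated, 78.2 at 6 h, 58.8 at 12 h and 7.61 at 24 h, and its log2 ratio was -3.20. The level was high at 6 and 12 h and near the untreated level at 24 h. In NB4, ASS1 was abundant throughout, between 526 and 713 TPM.

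**Figure D2:**
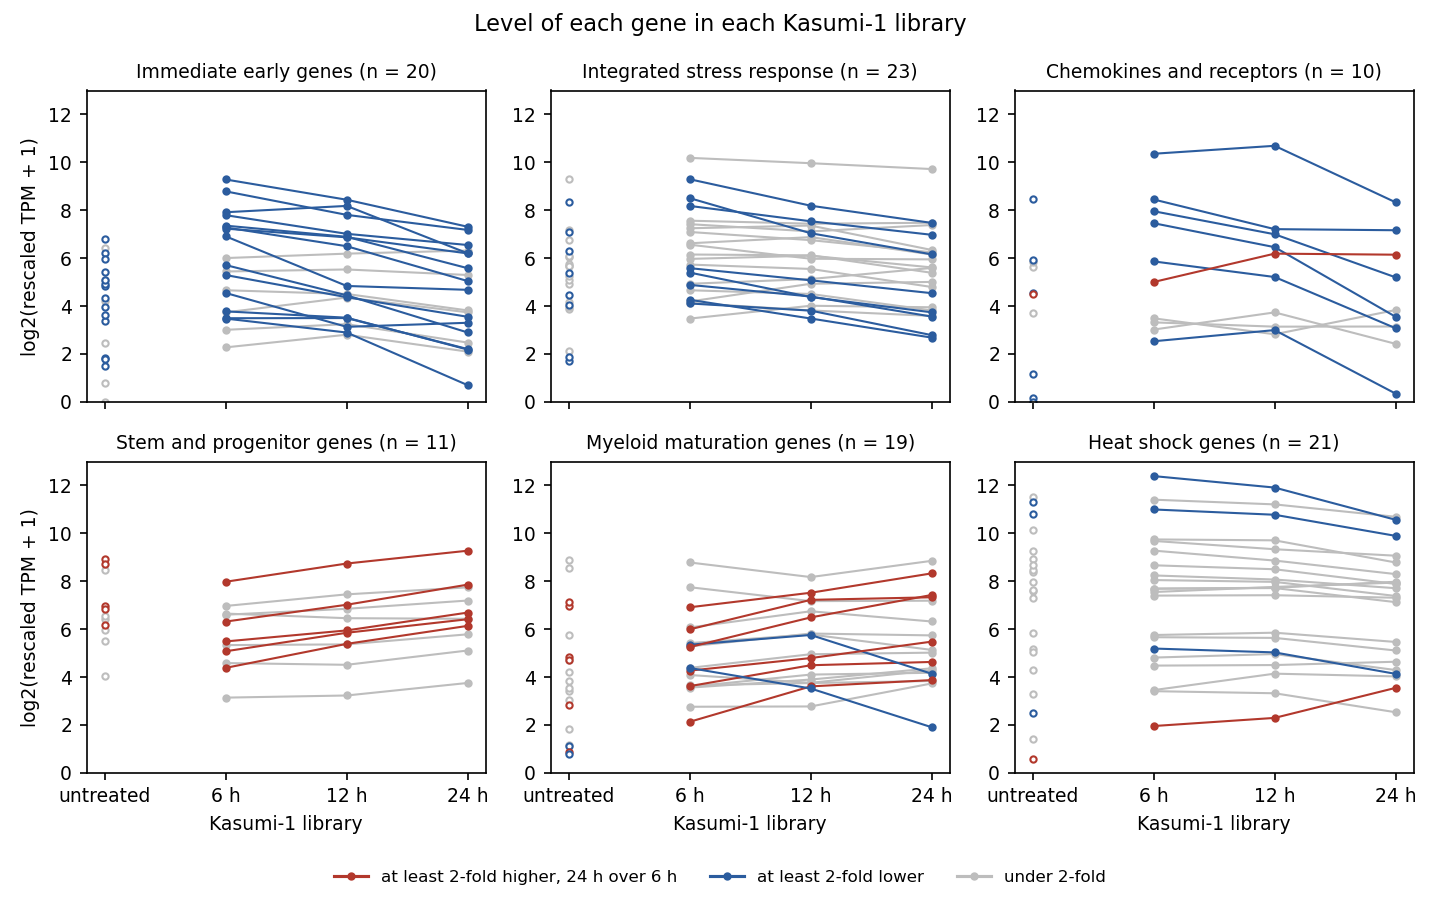
Level of each gene of 6 lists in the 4 Kasumi-1 libraries, as log2(rescaled TPM + 1), with treated times joined by lines and the untreated library as an open point. Red genes rose and blue genes fell at least 2-fold from 6 to 24 h; 14 of the 20 immediate early genes are blue and 5 of the 11 stem and progenitor genes are red.

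Few chaperone genes passed 2-fold. Among 21 heat shock genes 3 fell and 1 rose, against 3.31% and 4.3% of all genes, so the risen share was near that of all genes. The median was -0.56, with -0.04 from 6 to 12 h and -0.53 from 12 to 24 h. HSPA8 (chr11:122928197-122933938, minus strand), the constitutive HSC70, had 2545 TPM untreated, 5375 at 6 h, 3855 at 12 h and 1516 at 24 h, a log2 ratio of -1.82. HSP90AA1, the inducible HSP90, had 1776, 2045, 1755 and 952 TPM. Both were lower at 24 h than in the untreated library. HSPA1A, inducible HSP70, had 4.70, 35.5, 31.7 and 16.6 TPM, and its near-identical copy HSPA1B had 1.65, 9.63, 9.01 and 4.78. HSPA6, another inducible HSP70, went the other way from 2.88 at 6 h to 10.7 at 24 h. NB4 had the same list median of -0.56, with 6 of the 21 fallen, against 0.802% of all genes.

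In the endoplasmic reticulum list of 28 genes the median was -0.32, and 1 gene fell and 1 rose, near the 3.31% and 4.3% of all genes. HSPA5, which encodes BiP, had 706, 902, 1046 and 410 TPM, and XBP1 had 367, 505, 679 and 294. Both were highest at 12 h and lowest at 24 h. TXNDC5, the risen one, was listed at 67.9 TPM at 6 h and 307 at 24 h, but it overlaps the read-through gene BLOC1S5-TXNDC5, listed at 173 and 0 TPM. The summed locus had a log2 ratio of 0.36, so neither value is read as a change of the gene.

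Of 7 metallothionein and zinc genes 3 fell and none rose, against 3.31% and 4.3% of all genes. Metallothioneins bind zinc and copper. MT2A had 2283, 2545, 1064 and 760 TPM, MT1X 239, 304, 95.7 and 100, and MT1G 35.0, 91.8, 28 and 31.1. Of 14 tubulin and actin cytoskeleton genes 4 fell and 1 rose, against 3.31% and 4.3% of all genes, with a median of -0.41. TUBA1A, an alpha tubulin, had 47.4, 498, 120 and 120 TPM, and LMNA, lamin A/C, 7.85, 73.7, 43.3 and 17.5. TUBB2A and TUBB3 had log2 ratios of -1.86 and -1.39. TUBA4A rose from 3.95 to 11.2 TPM.

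Of 15 BCL2 family genes 3 fell, against 3.31% of all genes: BOK, with 5.54, 30.04, 12.8 and 7.51 TPM, BBC3 (PUMA), with 3.18, 33.0, 17.6 and 12.3, and PMAIP1 (NOXA), with 69.0, 193, 171 and 76.4. All 3 encode proteins that favour apoptosis. The family's median was -0.01 and no member rose. Among 20 p53 targets 5 fell, against 3.31% of all genes, and 1 rose, near the 4.3% of all genes. CDKN1A, the cell cycle inhibitor p21, had 9.65, 40.5, 54.8 and 15 TPM in Kasumi-1 and rose in NB4. TP53INP1, a p53 cofactor, rose from 11.9 to 28.96 TPM.

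Stem and progenitor genes moved the opposite way. Of 18 listed genes 11 passed the filter, 5 rose and none fell, against 4.3% of all genes, and the median log2 ratio was 0.78. Against the untreated library the median was -0.91 at 6 h, -0.83 at 12 h and -0.31 at 24 h. The 12 h level lay between the ends for 10 of the 11. The count was also 5 with the mitochondrial rows kept and with the median gene set to 0.

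KIT (chr4:55524085-55606881, plus strand), the stem cell factor receptor, had 493 TPM untreated, 78.7 at 6 h, 129 at 12 h and 231 at 24 h. CD34 (chr1:208057594-208084747, minus strand), the sialomucin of progenitors, had 122, 19.9, 40.8 and 69.4 TPM. Both were lowest at 6 h and at 24 h stood below the untreated level, with log2 ratios of 24 h to 6 h of 1.54 and 1.75. SOX4, a progenitor transcription factor, had 114, 32.7, 56.7 and 84.3 TPM. MYB (chr6:135502453-135540311, plus strand), a factor that sustains myeloblast proliferation, had 424, 252, 427 and 619 TPM. ERG, an ETS factor, had 70.6, 43.9, 60.7 and 102 TPM. MYB and ERG thus ended above the untreated library, in contrast to KIT, CD34 and SOX4. GATA2 was the member with a negative ratio, at -0.22. KIT and CD34 were at most 0.33 TPM in every NB4 library, so their ratios there were near 0 from the start. The 6 members that also reached 5 TPM in a treated NB4 library had medians of 0.68 in Kasumi-1, with 2 risen, and -0.05 in NB4, with 1 risen.

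Of 19 myeloid maturation genes 6 rose and 2 fell, against 4.3% and 3.31% of all genes, and the median was 0.58. LYZ, which encodes lysozyme, had 27.9 TPM untreated, 37.1 at 6 h, 88.9 at 12 h and 171 at 24 h, a log2 ratio of 2.18. NCF4, a subunit of the phagocyte oxidase, had 140, 120, 183 and 321 TPM. NCF1, another subunit, had 24.9, 18.3, 26.7 and 43.6, though it has near-identical pseudogenes. MNDA, a nuclear antigen of myeloid cells, had 123, 62.6, 148 and 160 TPM. S100A8 had 0.84, 3.38, 11.2 and 13.7 TPM, while its partner S100A9 had 467, 214, 143 and 145. TREM1 and C5AR1, receptors of activated myeloid cells, fell, with 19.8 to 2.74 TPM and 39.8 to 16.6 TPM from 6 to 24 h. CD68 had a ratio of 1.01, and 5 rather than 6 members rose with the mitochondrial rows kept. The NB4 median was 0.70, with 5 risen and 1 fallen, against 3% and 0.802% of all genes.

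Primary granule genes, which are made at the promyelocyte stage, were split. MPO, the second most abundant protein-coding gene at 24 h, had 10856, 12389, 10208 and 11269 TPM and a log2 ratio of -0.14. PRTN3, proteinase 3, had 6542, 5485, 2839 and 2136 TPM, and ELANE, neutrophil elastase, 690, 1624, 786 and 501. CTSG, cathepsin G, had 12.7, 20.6, 6.80 and 2.39 TPM. These 3 serine proteases of 12 compared genes fell and LYZ, also on this list, rose, against 3.31% and 4.3% of all genes, while AZU1, their inactive relative, had 1600, 3084, 2727 and 2272 TPM. CTSG and PRTN3 also fell in NB4, with ratios of -2.86 and -2.31.

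Tryptase genes rose in both lines. TPSB2 had 5.30 TPM untreated, 28.1 at 6 h, 64.2 at 12 h and 107 at 24 h, and TPSAB1 2.04, 9.97, 19.9 and 34.3. TPSD1 had 0.81, 1.33, 6.14 and 24.0 TPM. Every treated library was above the one before it. These genes are near-identical copies, so the split among them is uncertain, and the other 8 listed mast cell and basophil genes did not reach 5 TPM in a treated Kasumi-1 library. HDC, the histidine decarboxylase gene among them, had 129, 455 and 899 TPM at 6, 12 and 24 h in NB4.

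Cell division, replication and biosynthesis genes changed little. None of 35 mitosis genes passed 2-fold, and 32 had ratios above 0, with a median of 0.29 in Kasumi-1 and -0.53 in NB4. MKI67 had 45.7, 34.6, 35.1 and 53.6 TPM and TOP2A 327, 232, 239 and 339, each lowest at 6 h. Among 41 DNA replication genes none rose or fell, and their median against untreated was -0.78 at 6 h and -0.77 at 24 h. MYC and ribosome biogenesis genes had ratios below 0 for 37 of 38, a median of -0.37 and none past 2-fold. The 79 cytosolic ribosomal protein genes and the 77 nuclear oxidative phosphorylation genes had medians of -0.03 and 0.08 and none past 2-fold. With the mitochondrial rows kept these medians were -0.18 and -0.07. The nuclear respiratory chain genes therefore stood near the median of all genes while the share of mitochondrially encoded RNA grew. Of 24 cholesterol genes none passed 2-fold. Of 33 lysosome genes 2 rose (6.06%), near the 4.3% of all genes, and 1 rose with the mitochondrial rows kept. The 2 were CLCN7 and ASAH1, from 130 to 346 and from 93.0 to 195 TPM.

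**Figure D3:**
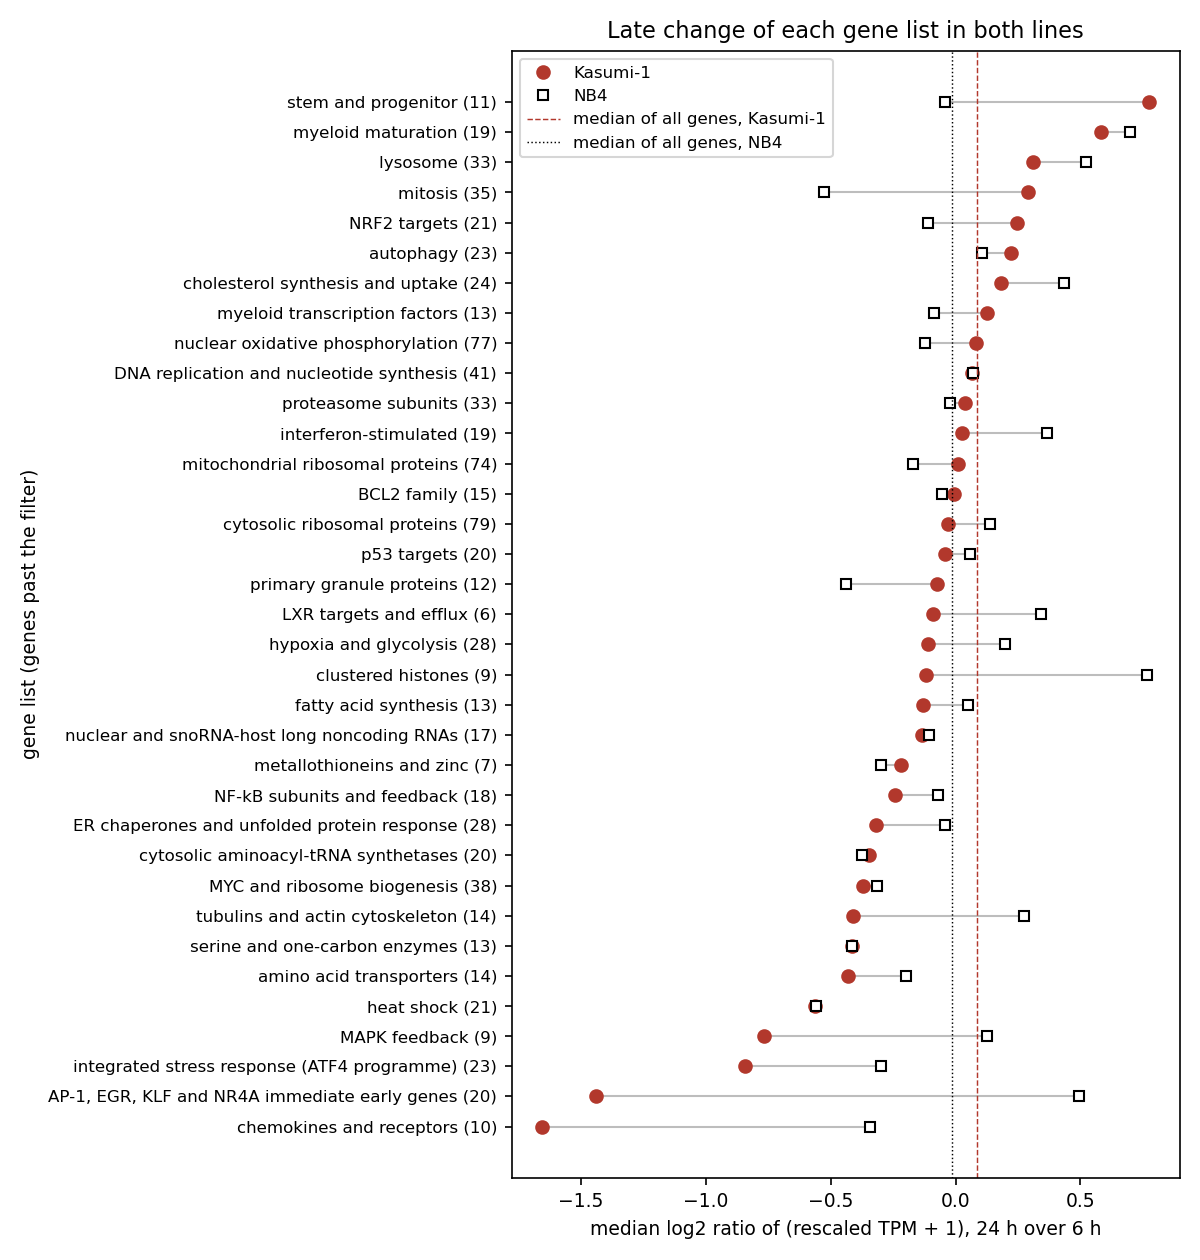
Median log2 ratio of (rescaled TPM + 1), 24 h over 6 h, of each gene list with at least 5 genes past the filter, in Kasumi-1 (filled circles) and NB4 (open squares), with the number of genes in brackets. The dashed and dotted lines are the medians of all genes; the immediate early genes stand at -1.44 in Kasumi-1 and 0.49 in NB4, and the mitosis genes at 0.29 and -0.53. The filter used Kasumi-1 libraries alone, so NB4 medians include genes that NB4 hardly expresses.

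Interferon-stimulated genes divided. The IFIT genes, whose products bind foreign RNA, fell, with IFIT1 at 14.6, 38.7, 39.2 and 8.76 TPM and IFIT2 at 8.22, 24.7, 23.8 and 8.20. Both held their level until 12 h. In all 5 of 19 genes fell and 4 rose, against 3.31% and 4.3% of all genes, but with the mitochondrial rows kept 1 rose. XAF1 was highest among the risen, from 1.88 to 7.53 TPM. Among NRF2 targets, HMOX1, which encodes heme oxygenase, had 2.91, 16.6, 12.2 and 40.8 TPM, and 2 of 21 rose and 2 fell, against the same shares.

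Several of the largest single changes were in genes of no list. TIMP2 (chr17:76849059-76921469, minus strand), an inhibitor of metalloproteinases, had 31.3 TPM untreated, 48.3 at 6 h, 34.1 at 12 h and 236 at 24 h. TRAPPC5, a subunit of a vesicle tethering complex, had 17.5, 22.5, 20.8 and 169 TPM. These 2 genes were high in the 24 h library alone. PPP1R27, a regulatory subunit of protein phosphatase 1, had 8.15, 8.70, 24.3 and 81.5 TPM and climbed through both intervals. GAPT, an adaptor that binds GRB2, had 115, 26.6, 96.4 and 151 TPM, and SORL1, a sorting receptor, 70.8, 24.6, 36.3 and 130. Both were lowest at 6 h and ended above the untreated library.

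Of the genes that fell furthest, FYN, a SRC-family kinase, had 1.69 TPM untreated, 13.5 at 6 h, 3.84 at 12 h and 0.43 at 24 h. THBD, thrombomodulin, had 0.99, 13.9, 1.68 and 0.68 TPM. PIM1, a serine-threonine kinase, had 15.1, 52.6, 15.04 and 8.39 TPM. CRIP2 was listed at 0 untreated with 24.8, 10.7 and 3.56 TPM later. In each of these the 6 h library was the high one. PTP4A3, a phosphatase, had 26.0, 165, 50.1 and 30.4 TPM.

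Among the 15 protein-coding genes with the highest ratios and the 15 with the lowest, several lay in loci that did not change as they did. They overlap other genes on their strand, and most are read-through genes. BIVM-ERCC5 was listed at 0 at 6 h and 26.5 TPM at 24 h, but with the genes it overlaps the log2 ratio was 0.65. MFAP3, NDUFC2-KCTD14 and STX16-NPEPL1 had locus ratios of 0.72, 0.67 and 0.58. PPAN-P2RY11, RP11-20I23.1 and HSPE1-MOB4 fell, with locus ratios of -0.30, -0.07 and 0.19. Over all changed genes, 77 risen and 52 fallen ones overlap another gene on the same strand, and for 48 and 31 of them the locus sum was under 2-fold. Most of the genes with the largest peaks and troughs at 12 h were of this kind, such as HNRNPH2 with 1.29, 96.1 and 1.49 TPM at 6, 12 and 24 h. CCSAP, a centriole and spindle protein with no such overlap, had 30.3 TPM untreated, then 4.06, 29.2 and 6.44.

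A larger share of noncoding than of protein-coding genes rose. Of 161 long intergenic noncoding RNA genes 27 rose (16.8%) and 4 fell (2.48%), and of 266 antisense genes 39 rose (14.7%) and 8 fell (3.01%). Processed pseudogenes lay between, with 20 of 310 risen (6.45%) and 9 fallen (2.9%). Of 10200 protein-coding genes 347 rose (3.4%) and 335 fell (3.28%). Where the 3 treated libraries averaged 20 TPM or more, 8 of 37 intergenic (21.6%) and 4 of 37 antisense (10.8%) genes rose, against 2.44% of 6937 protein-coding genes. From 5 to 10 TPM, 13.9% of antisense, 6.67% of intergenic and 5.14% of protein-coding genes rose. In NB4, 3.11% of the intergenic, 5.64% of the antisense and 2.6% of the protein-coding genes rose. There 0%, 0.376% and 0.696% of them fell. Among genes that also reached 5 TPM in a treated NB4 library, 8 of 93 intergenic genes (8.6%), 10.7% of 150 antisense and 2.91% of 9105 protein-coding genes rose in Kasumi-1. The NB4 shares of these genes were 2.15%, 6% and 2.54%.

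Of 17 listed nuclear and snoRNA-host long noncoding RNAs 2 rose (11.8%), against 4.3% of all genes and 16.8% of long intergenic ones. In this list 10 had ratios below 0 and the median was -0.13. The 2 were NEAT1 and MALAT1. NEAT1, the RNA that builds paraspeckles, had 83.1 TPM untreated, 26.4 at 6 h, 126 at 12 h and 182 at 24 h, a log2 ratio of 2.74. MALAT1, its neighbour on chromosome 11 and a speckle RNA, had 25.3, 52.8, 61.7 and 141 TPM. NEAT1 was low at 6 h alone, and MALAT1 was highest at 24 h. MYB-AS1, on the strand opposite MYB, had 3.39, 2.29, 5.07 and 11.4 TPM. Whether the reads kept their strand is not given in the sources used here, so reads of MYB and MYB-AS1 cannot be told apart. The same holds for the other antisense genes.

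**Figure D4:**
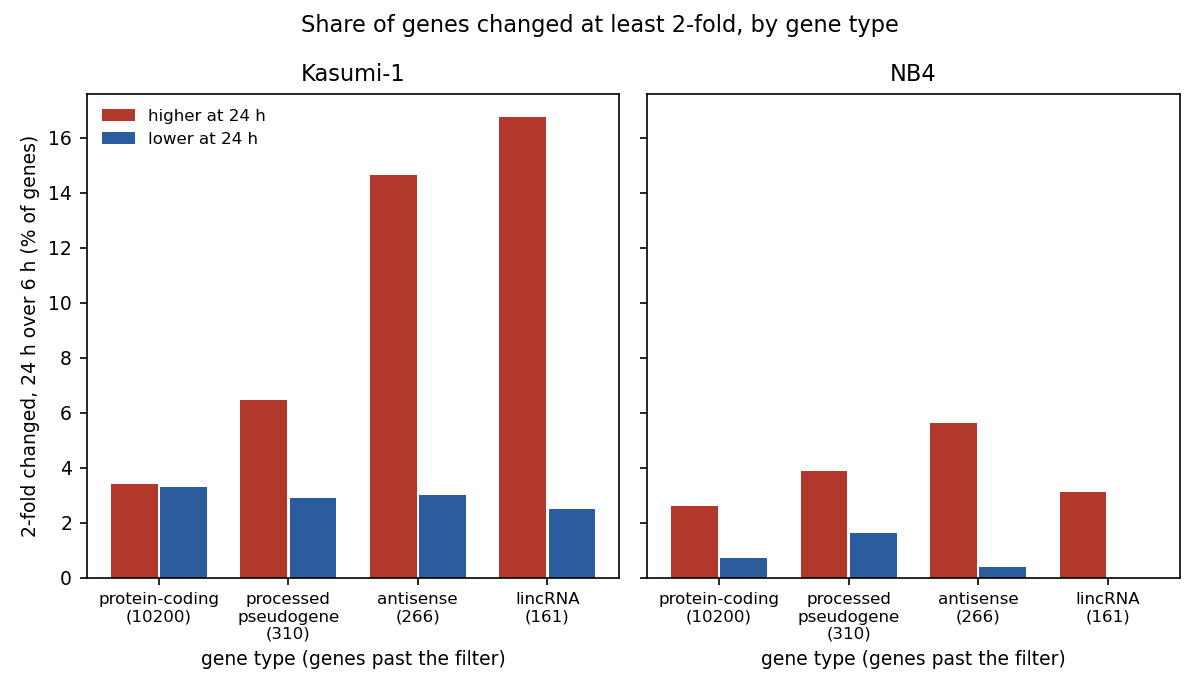
Share of genes of each type at least 2-fold higher (red) or lower (blue) at 24 h than at 6 h, in Kasumi-1 (left) and NB4 (right), with the number of genes past the filter in brackets. In Kasumi-1, 16.8% of long intergenic noncoding RNA genes and 14.7% of antisense genes were higher, against 3.4% of protein-coding genes. Genes were filtered on Kasumi-1 alone, so the NB4 shares include genes near 0 there.

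The direction of the late change was next set beside that of NB4 for the same 11715 genes, of which 351 rose (3%) and 94 fell (0.802%) in NB4. Of the 10184 that also reached 5 TPM in a treated NB4 library, 2.85% rose and 0.835% fell in NB4, and 3.28% rose and 2.69% fell in Kasumi-1. The lines share no library. In all, 58 genes rose in both lines, 11.5% of the risen genes of Kasumi-1 and 16.5% of those of NB4. Another 15 fell in both, 3.87% and 16.0% of the fallen. These 15 include ASNS, PSAT1, MTHFD1L, SLC7A11, HSPA8, HSP90AA1, PRTN3, CTSG and CCL4. Opposite changes were 46 genes that fell in Kasumi-1 and rose in NB4, 11.9% and 13.1% of the genes called in that direction. The reverse was seen for 7 genes.

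Of the 46, 30 are protein-coding, overlap no gene on their strand and were never listed at 0. The filter used Kasumi-1 libraries alone, so some of the 30 were low in NB4. RHBDF1 had 3.47 TPM and KDELR3 2.13 at 24 h there, and such ratios rest on low values. PLAUR, the urokinase receptor, had 164 TPM at 6 h and 39.0 at 24 h in Kasumi-1, against 59.6 and 156 in NB4. TNFRSF12A, the TWEAK receptor, went from 51.3 to 14.0 in Kasumi-1 while NB4 went from 24.2 to 55.0. EMP1, a membrane protein, had 22.9 and 3.79 in Kasumi-1, against 9.59 and 31.3. In each the levels of the lines crossed over between 6 and 24 h. CD69 had 278 and 74.8 TPM in Kasumi-1 against 4.76 and 15.4 in NB4, so Kasumi-1 stayed higher. ZFP36L1, a messenger decay factor, had 12.6 and 4.20 in Kasumi-1, against 12.2 and 64.6. IL3RA, a subunit of the interleukin 3 receptor, had 33.2 and 13.4 in Kasumi-1, against 4.45 and 11.2. CCL3L3, which is not among the 30, had log2 ratios of -2.76 and 3.80, the widest gap among genes that fell in Kasumi-1 and rose in NB4. It is a near-identical copy of CCL3, so the split of reads between them is uncertain.

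**Figure D5:**
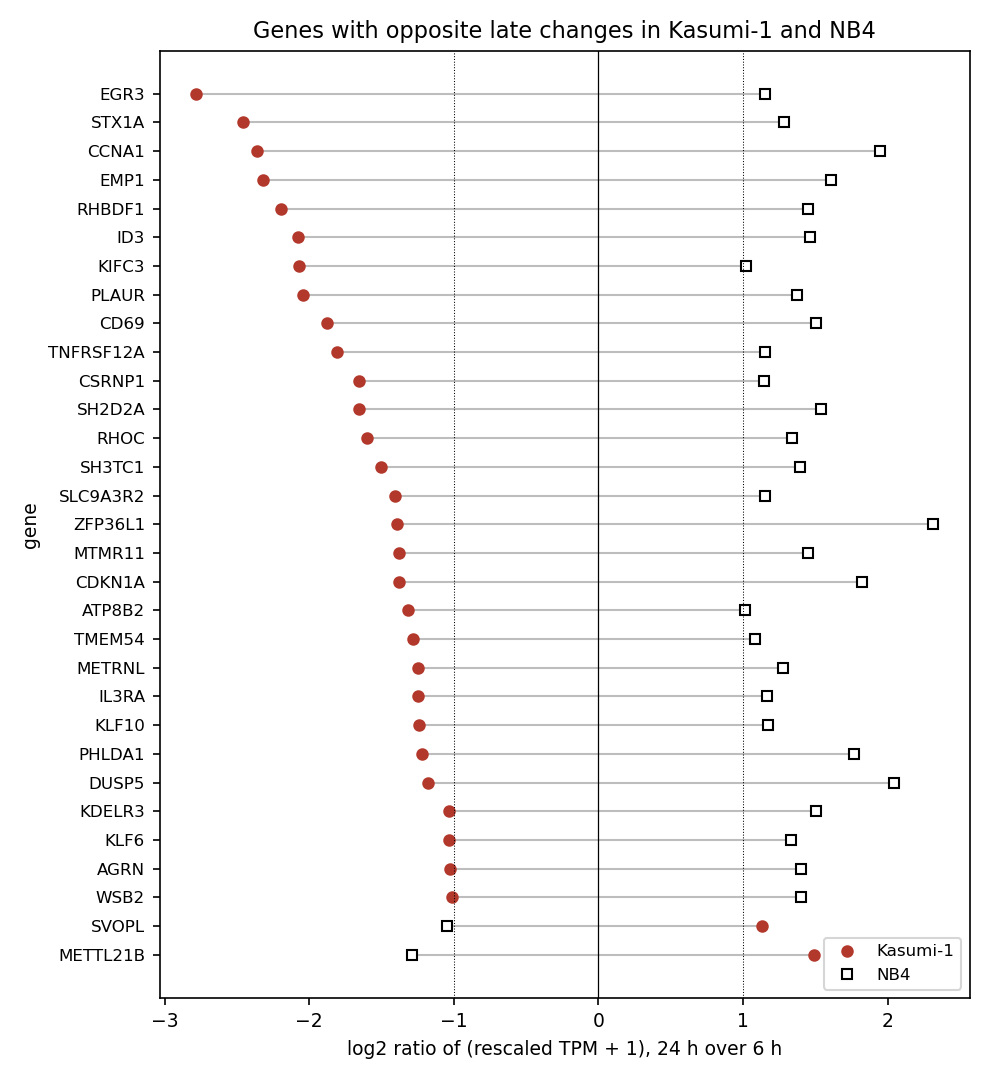
Log2 ratio of (rescaled TPM + 1), 24 h over 6 h, in Kasumi-1 (filled circles) and NB4 (open squares) for 31 protein-coding genes past 2-fold in opposite directions, without overlap on their strand and never listed at 0. Dotted lines mark 2-fold. Drawn are 29 of the 30 such genes that fell in Kasumi-1 and rose in NB4, and the 2 that show the reverse. Genes were filtered on Kasumi-1 alone, so some were low in NB4.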

How the data were processed

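RNA-seq libraries were prepared by the submitters with an Illumina TruSeq RNA kit, per the labels' protocols. The submitters' processing notes name HISAT2, StringTie and the build hg19, without versions, and the gene models used were not given in the sources used here. Each deposited table gives coverage, FPKM and TPM per gene, per the file headers. The deposited TPM values sum to 1e+06 in each library, and the deposited FPKM values are scaled for length and depth. The deposited coverage is a signal used only to look at depth. Read counts are not used here, so depth is unknown and no count test or interval was made. The commonest ratio of coverage to FPKM, which scales with aligned bases if FPKM does, was 9.83, 9.29 and 7.23 at 6, 12 and 24 h in Kasumi-1 (8.24 untreated, and 7.08 to 9.17 in NB4).

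From these, the 37 mitochondrial rows were dropped, TPM was rescaled and rows of 1 gene name were summed (298 names). Genes with at least 5 TPM in a treated Kasumi-1 library were compared as log2 of (TPM + 1), with 2-fold as the limit. At the 5 TPM limit, RAB38 was just inside at 5.00 and ACTL8 just outside at 4.99. At 2-fold, SNORA76 stood at 1.00 just inside. Samples were grouped by their titles. Types of genes were looked up in GENCODE 29, where 90.5% of the IDs matched. Promoter windows are RefSeq's on GRCh38.p14, matched by symbol, and gene coordinates are those of the files on hg19. The steps of the comparison were tested on simulated data, recovering 198 of 200 changed genes among 11146. The reliability of the calls in the real libraries, with 1 library per condition, was not tested. Python 3.11.15, pandas 2.3.3, numpy 2.4.6 and matplotlib 3.10.9 were used.

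The members and the 39 gene lists were chosen with earlier results of these data known. Named genes were the 15 highest and 15 lowest protein-coding ratios, the 5 largest peaks and troughs at 12 h, the list members past 2-fold (the most abundant where there are many), the 5 most abundant genes and the 5 widest opposite changes each way. Genes without overlap, the count of locus sums, the bands of level, CCL4L1 the limit of 5 TPM in NB4 and genes opposite or alike in both lines were added after their values were seen. Some genes are not reported here.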

Additional observations from a re-analysis of the deposited data

Results flagged for a closer look

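The share of TPM in mitochondrially encoded genes was above the untreated Kasumi-1 library, at 8.73%, in the 12 h library, at 10.6%, and in the 24 h library, at 17.1%. These rows were left out of the gene comparison. Of the 13 mitochondrial messenger RNAs 7 were at least 2-fold higher at 24 h than at 6 h in deposited TPM, and none was 2-fold lower. MT-ATP6 had 2704 TPM untreated, 2446 at 6 h, 10341 at 12 h and 17025 at 24 h, MT-ND2 had 6297, 7680, 10750 and 25861, and MT-CO1 had 10302, 8425, 8971 and 7626. The genes thus moved unequally. Of the 22 transfer RNAs 19 were higher and 1 was lower, and of the 2 ribosomal RNAs none passed 2-fold.

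The late change passed 2-fold in opposite directions in the lines for 46 and 7 genes, and the 5 with the widest gap each way are given here. These differences were not tested. Kasumi-1 minus NB4, the log2 ratios differed by 7.95 for MTATP6P1, 7.28 for RP13-104F24.1, 3.35 for RP11-138I1.4, 2.78 for METTL21B and 2.48 for CDK2AP2P1, which rose in Kasumi-1 and fell in NB4. They differed by -6.56 for CCL3L3, -6.18 for CTB-96E2.3, -6.10 for HSPE1-MOB4, -5.63 for AC005786.7 and -4.57 for MTATP8P1, which fell in Kasumi-1 and rose in NB4. MTATP6P1 and MTATP8P1 are nuclear copies of mitochondrial genes and overlap each other. MTATP6P1 had 2.40 TPM at 6 h, 2.75 at 12 h and 142 at 24 h. RP13-104F24.1, CTB-96E2.3 and HSPE1-MOB4 also overlap other genes, and the split of reads there is uncertain. It is also uncertain for CCL3L3, a near-identical copy of CCL3.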

How the results depend on the processing

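With 504 genes higher and 388 lower as the base, a pseudocount of 5 gave 236 and 205, a filter at 20 TPM 283 and 208, FPKM 238 and 243 (with 9215 genes past the same limit), and a limit of 1.5-fold 1588 and 970. With no filter, and with a filter at 1 TPM, 587 genes were lower. With mitochondrial rows kept 328 were higher. The remaining settings (pseudocount 0.1, the 10 most abundant genes dropped, ratios centred on the median gene, the 28 to 34 Mb stretch of chromosome 6 left out, a filter on the 6 h or 24 h library) kept both counts within 1.5 times. So did settings chosen after seeing the data: genes listed at 0 left out, overlapping genes summed and protein-coding genes only. Centred on the median gene, however, 417 genes were higher and 456 lower. Which direction held more genes thus depended on the scaling. Among 157 named genes 143 were past 2-fold. Of these, 32 did not keep that call with a pseudocount of 5, and 13 did not with overlapping genes summed. With mitochondrial rows kept, 8 of 141 did not. Of the 143, 3 changed sign when overlapping genes were summed: BLOC1S5-TXNDC5 to 0.36, HSPE1-MOB4 to 0.19 and MTATP8P1 to 3.84. Some named genes under 2-fold also changed sign, such as ISY1-RAB43 from 0.89 to -0.52. No paired analysis was possible because each condition has 1 library. No library could be left out for the same reason. Depth limits low genes most, since a level near 0 rests on few reads.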
